A study of Mus musculus with 12 samples.

Results

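*Nxpe4*, *Nxpe2*, *Hykk*, *Cbl*, *Pts*, *Nnmt*, *Rnf26*, *Pxylp1* and *Dclk3* are 9 protein-coding genes of mouse chromosome 9, the chromosome that carries *Rhoa*. They were chosen on this chromosome by their read counts, which differ between lungs of the 2 genotypes. Their genotype differences are therefore given as a description, with no test. All 9 were found among the 54532 gene rows of the count table, and all 9 were among the 17473 genes that passed the low-count filter. Chromosome 9 held 978 tested genes, of which 969 are not in the list. The choice used no stated threshold.

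RNA of whole lung was sequenced from mice in 4 groups of 3 libraries. CKO_PBS mice carried Cc10-Cre with both *Rhoa* alleles floxed and received PBS, and WT_PBS mice carried Cc10-Cre alone and received PBS. CKO_CRE and WT_CRE mice were of the same genotypes and received a treatment labelled CRE, which the labels do not spell out. All groups therefore carried the Cre recombinase transgene, driven by the promoter of Cc10 (*Scgb1a1*), the marker of club cells, which are secretory cells of the airway lining. A deletion driven by it would be limited to cells that have expressed Cc10. The labels used here give no strain, age, sex or litter, put all libraries in 1 batch, and do not say that each library came from a separate mouse, so p-values measure the spread between these samples. By Y-linked against *Xist* counts, replicate 2 of CKO_PBS, replicates 2 and 3 of CKO_CRE and replicates 2 and 3 of WT_CRE were female and the other libraries male. Female libraries were thus more frequent under CRE than under PBS, and sex was partly confounded with treatment. Under PBS the only female library was a CKO library, so sex was also unbalanced between the genotypes there. Library totals ran from 16250674 to 21559210 counts. The 8 lung markers set for the tissue check were detected in every library, at 5.90 CPM or more. CPM is the usual scaled count of a gene, relative to the total of its library after TMM scaling.

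The genes have no single shared role. *Cbl* and *Rnf26* encode RING-type E3 ubiquitin ligases. *Pts*, *Nnmt*, *Hykk* and *Pxylp1* encode enzymes of small-molecule or sugar metabolism, *Dclk3* encodes a protein kinase, and *Nxpe2* and *Nxpe4* belong to the neurexophilin and PC-esterase domain family. Their shared chromosome was set by the choice. Loci on 1 chromosome are inherited together unless recombination separates them, and whether this bears on the differences was not tested.

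Their positions fell into separate stretches of the chromosome (GENCODE M21 on GRCm38, the mm10 build). On the side of *Rhoa* with lower coordinates, 7 of the 9 lay between 44 and 55 Mb, at -64.19 to -53.39 Mb relative to the start of *Rhoa* (108306129 to 108337934). *Rnf26* (44095631 to 44113517) and *Cbl* (44142976 to 44234049) came first there, followed by *Nxpe4* (48162023 to 48400025), *Nxpe2* (48318006 to 48353454), *Nnmt* (48591877 to 48605153), *Pts* (50521617 to 50528724) and *Hykk* (54917283 to 54949924). *Pxylp1* (96823336 to 96892669) started at -11.41 Mb. *Dclk3* (111439081 to 111489118), at 3.13 Mb on the other side, was the closest of the 9.

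Genotype separated 8 of the 9 genes in one direction under both treatments. Every CKO library was below every WT library for 8 genes under PBS, a separation found for 7.53% of all tested genes, and for the same 8 genes under CRE, where it was found for 7.69% of all. In both treatments together it was found for 0.761% of tested genes, and the opposite separation for 0.904%. *Dclk3* was the exception, with overlapping groups under PBS and higher counts in CKO_CRE than in WT_CRE, a separation in that direction found for 7.37% of tested genes under CRE and 7.65% under PBS. Since these differences chose the genes, nothing is read from the shares. In whole lung, fewer cells of a type and less RNA per cell cannot be told apart.

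**Figure D1:**
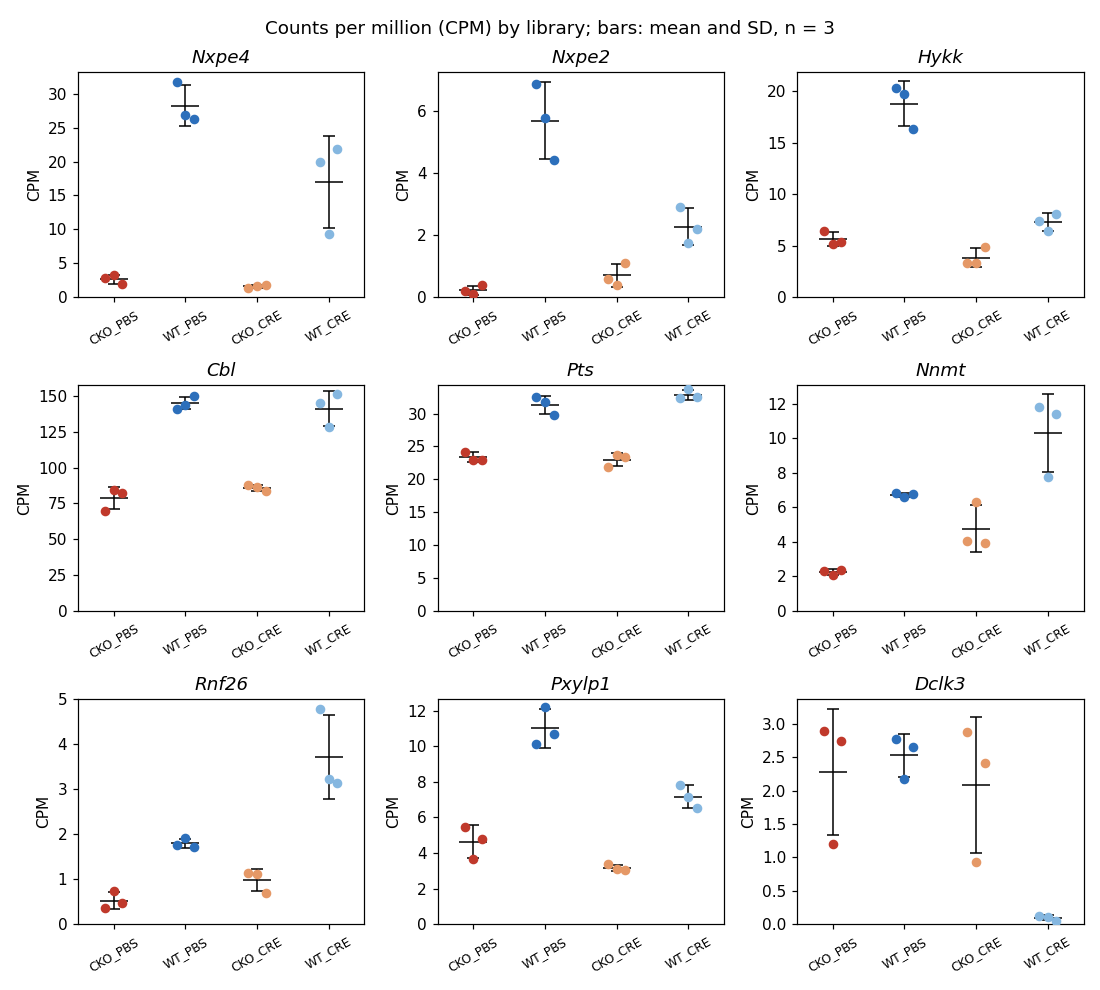
CPM of the 9 genes in each library (points), with the mean and SD of each group (bars, n = 3), for CKO_PBS, WT_PBS, CKO_CRE and WT_CRE on the horizontal axis. In 8 panels all CKO points lie below the WT points of the same treatment, and in the *Dclk3* panel the WT_CRE points lie near 0, at 0.126 CPM or less.

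The neighbouring genes *Nxpe4* and *Nxpe2* had the largest differences under PBS. *Nxpe4* had 2.84, 3.23 and 1.92 CPM in CKO_PBS, against 31.7, 26.8 and 26.2 CPM in WT_PBS. Under CRE it had 1.44, 1.64 and 1.88 CPM in CKO_CRE, against 20, 9.29 and 21.8 CPM in WT_CRE. No CKO library came near a WT library, and WT_CRE replicate 2 stood apart from the other 2 WT_CRE libraries. The difference, CKO minus WT, was -3.40 ± 0.30 (log2, SE) under PBS and -3.36 ± 0.32 under CRE, so that CKO lungs held 0.0947 and 0.0975 of the WT level.

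*Nxpe2* was scarcer. Its level was 0.207, 0.0924 and 0.384 CPM in CKO_PBS, against 6.87, 5.79 and 4.42 CPM in WT_PBS. It was 0.601, 0.409 and 1.12 CPM in CKO_CRE, against 2.90, 1.75 and 2.19 CPM in WT_CRE. The CKO_PBS values rest on 14 counts in all, against 326 counts in WT_PBS, a ratio of 0.0393 with an exact 95% counting interval of 0.0213 to 0.067. Under CRE, 36 counts in CKO_CRE stood against 119 counts in WT_CRE, a ratio of 0.315 (0.211 to 0.461). Such intervals cover counting error only. On the fitted log2 scale the difference was -4.61 ± 0.46 under PBS and -1.67 ± 0.41 under CRE (SE).

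The RefSeq starts of the pair lie on opposite strands, 21.1 kb apart, with transcription running away from the gap between them. In GENCODE the *Nxpe4* locus spans *Nxpe2*, but the genes share 0 exonic bases. The RefSeq sequences around the 2 starts (GRCm38.p6, from 250 bases before to 50 after) are shown for 2 neighbours that were both lower in CKO. Under CRE their differences were unlike in size, -3.36 ± 0.32 for *Nxpe4* and -1.67 ± 0.41 for *Nxpe2* (log2, SE). The sequence of *Hykk* is shown because it held the most motif matches of the 7 members matched in the table. Capitals mark matches, on either strand, to any of 5 motifs. The first 3 were the TATA box, searched as TATAAA, the CCAAT box, searched by the letters of its name, and the GC box, searched as GGGCGG. The AP-1 site was searched as TGANTCA. The STAT6-type site was any TTC followed by GAA, with 4 bases of any kind in the gap.
Nxpe4 (chr9:48361791-48362090, plus strand): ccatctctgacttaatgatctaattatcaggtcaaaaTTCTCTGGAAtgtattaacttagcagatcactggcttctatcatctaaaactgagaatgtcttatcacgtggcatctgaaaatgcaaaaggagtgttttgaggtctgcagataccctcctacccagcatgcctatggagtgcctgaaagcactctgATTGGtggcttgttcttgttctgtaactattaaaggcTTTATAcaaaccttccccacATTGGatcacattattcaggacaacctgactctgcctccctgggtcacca
Nxpe2 (chr9:48340849-48341148, minus strand): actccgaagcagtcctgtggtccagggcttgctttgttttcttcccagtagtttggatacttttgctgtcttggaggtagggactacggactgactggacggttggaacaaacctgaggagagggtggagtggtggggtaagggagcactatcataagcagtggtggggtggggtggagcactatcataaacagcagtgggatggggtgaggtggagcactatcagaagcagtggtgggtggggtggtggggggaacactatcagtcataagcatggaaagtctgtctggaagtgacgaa
Hykk (chr9:54917040-54917339, plus strand): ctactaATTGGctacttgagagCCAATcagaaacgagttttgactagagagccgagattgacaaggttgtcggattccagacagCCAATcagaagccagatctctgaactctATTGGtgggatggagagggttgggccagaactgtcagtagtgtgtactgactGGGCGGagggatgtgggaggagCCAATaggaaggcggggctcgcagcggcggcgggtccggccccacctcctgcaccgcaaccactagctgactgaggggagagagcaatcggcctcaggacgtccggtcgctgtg
The *Nxpe4* window held 1 match to the TATA box, 2 to the CCAAT box and 1 to the STAT6-type site, and the *Nxpe2* window held none of the 5 motifs. The *Hykk* window held 5 matches to the CCAAT box and 1 to the GC box. Among the 32544 distinct windows of this length in the table, 13.6% held the TATA box, 37.4% the CCAAT box, 35.9% the GC box, 7.79% the AP-1 site and 6.98% the STAT6-type site. CpG dinucleotides numbered 1 in the *Nxpe4* window and 4 in that of *Nxpe2*, against 43 for *Cbl*, 38 for *Pxylp1*, 25 for *Pts*, 20 for *Rnf26* and 15 for *Hykk*, with a median of 7 over all windows. *Nxpe4* and *Nxpe2* thus had the fewest CpG of the 7, and no relation to the genotype differences is read from this. A match or its lack is a description of the letters only.

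The ubiquitin ligase genes were also lower in CKO lungs. *Cbl*, whose product ubiquitinates activated receptor tyrosine kinases, had 69.9, 84.2 and 82.3 CPM in CKO_PBS, against 141, 144 and 150 CPM in WT_PBS. It had 87.6, 86.7 and 83.7 CPM in CKO_CRE, against 145, 128 and 151 CPM in WT_CRE. CKO lungs held 0.543 and 0.609 of the WT level, and with 4365 to 8201 counts per group this was the most deeply counted of the 9 genes. Its difference was -0.88 ± 0.09 under PBS and -0.72 ± 0.09 under CRE (log2, SE).

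*Rnf26*, whose product acts at the endoplasmic reticulum and in human cells ubiquitinates the DNA-sensing adaptor STING, was low throughout. It had 0.362, 0.739 and 0.480 CPM in CKO_PBS, against 1.77, 1.91 and 1.71 CPM in WT_PBS. In CKO_CRE it had 1.14, 1.11 and 0.706 CPM, against 4.79, 3.22 and 3.15 CPM in WT_CRE. The groups were apart under either treatment, by -1.75 ± 0.33 and -1.91 ± 0.31 (log2, SE). These counts are uncertain: *Gm49380*, on the same strand, shares 56.6% of the exonic bases of *Rnf26*, the antisense gene *Gm26737* shares 8.6%, and *Gm9008* matches a stretch of 429 bases at 99.3% identity. *Rnf26* was the only one of the 9 with such a near-identical stretch (98% or more over at least 200 bases) in another gene.

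Of the enzyme genes, *Hykk*, *Nnmt* and *Pxylp1* had CKO levels of 0.301 to 0.525 of WT, and *Pts* had the smallest difference of the genes lower in CKO. *Hykk* encodes hydroxylysine kinase, which in human phosphorylates free hydroxylysine, a product of collagen breakdown. It had 6.41, 5.22 and 5.33 CPM in CKO_PBS, against 20.3, 19.7 and 16.3 CPM in WT_PBS. It had 3.30, 3.33 and 4.88 CPM in CKO_CRE, against 7.44, 6.39 and 8.13 CPM in WT_CRE. The CKO_CRE and WT_CRE libraries were closer together than those under PBS, with differences of -0.93 ± 0.19 under CRE and -1.73 ± 0.18 under PBS (log2, SE).

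*Nnmt* encodes nicotinamide N-methyltransferase, which consumes the methyl donor S-adenosylmethionine. Its CPM were 2.33, 2.08 and 2.35 in CKO_PBS, against 6.82, 6.60 and 6.78 in WT_PBS. They were 4.03, 6.31 and 3.94 in CKO_CRE, against 11.8, 7.76 and 11.4 in WT_CRE. Under CRE, CKO_CRE replicate 2 was the highest CKO library and WT_CRE replicate 2 the lowest WT library, and they still did not overlap. The difference was -1.58 ± 0.22 under PBS and -1.12 ± 0.21 under CRE (log2, SE).

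*Pxylp1* encodes a phosphatase that in human acts on the xylose of the linker between proteoglycan core proteins and their sugar chains. It had 5.48, 3.65 and 4.80 CPM in CKO_PBS, against 10.1, 12.2 and 10.7 CPM in WT_PBS. It had 3.36, 3.10 and 3.06 CPM in CKO_CRE, against 7.82, 7.16 and 6.52 CPM in WT_CRE. Both treatments gave nearly the same difference, -1.24 ± 0.17 and -1.17 ± 0.18 (log2, SE).

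*Pts* encodes pyruvoyl-tetrahydropterin synthase, an enzyme of the synthesis of tetrahydrobiopterin, the cofactor of nitric oxide synthases. Its level was 24.2, 22.9 and 23.0 CPM in CKO_PBS, against 32.5, 31.8 and 29.8 CPM in WT_PBS. Under CRE it was 21.9, 23.7 and 23.4 CPM in CKO_CRE, against 32.4, 33.7 and 32.5 CPM in WT_CRE. The gap was small but the libraries of a group lay close together, and the difference was -0.42 ± 0.08 under PBS and -0.51 ± 0.08 under CRE (log2, SE).

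*Dclk3*, which encodes a doublecortin-like serine/threonine kinase, separated the genotypes under CRE alone and in the other direction. Under PBS it had 2.89, 1.20 and 2.74 CPM in CKO_PBS, against 2.78, 2.17 and 2.65 CPM in WT_PBS. Under CRE it had 2.88, 0.935 and 2.41 CPM in CKO_CRE, against 0.126, 0.109 and 0.0535 CPM in WT_CRE. WT_CRE was the one group out of 4 in which the gene was close to undetected, with 5 counts over its 3 libraries, against 105 counts in CKO_CRE. That is a ratio of 21.9 with an exact 95% counting interval of 9.08 to 68.8. Within CKO, replicate 2 was the lowest under either treatment. The fitted difference, which depends on the prior count at such levels, was -0.16 ± 0.40 under PBS and 4.36 ± 0.61 under CRE (log2, SE).

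**Figure D2:**
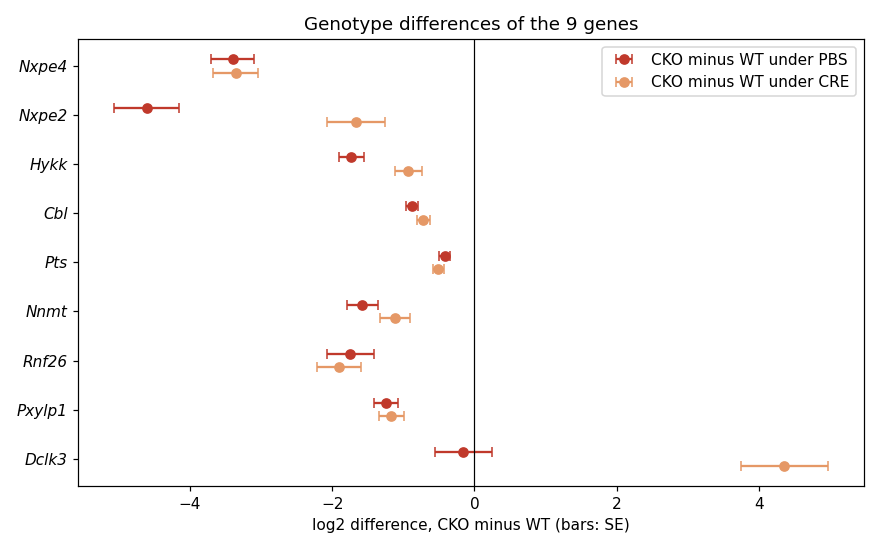
Fitted log2 differences, CKO minus WT, with SE bars, for the 9 genes under PBS (dark red) and under CRE (orange), on a log2 axis. The points of 8 genes lie left of 0 under both treatments, from -4.61 to -0.42, and *Dclk3* lies at -0.16 under PBS and 4.36 under CRE.

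Scaled by exon length, the order of the genes differed between the genotypes. Levels in CPM per kb of exon are given as mean ± SD (n = 3). In CKO_PBS, *Cbl* was highest at 6.38 ± 0.629, followed by *Pts* at 3.83 ± 0.125 and *Nnmt* at 1.43 ± 0.0962. *Dclk3* (0.758 ± 0.311), *Pxylp1* (0.755 ± 0.15), *Hykk* (0.633 ± 0.0734) and *Nxpe4* (0.451 ± 0.114) came next, and neighbours among these 4 did not differ beyond their spread. *Rnf26* (0.145 ± 0.053) and *Nxpe2* (0.0555 ± 0.0359) were lowest. In WT_PBS, *Cbl* was at 11.8 ± 0.356, *Pts* at 5.14 ± 0.232, *Nxpe4* at 4.77 ± 0.511 and *Nnmt* at 4.27 ± 0.0749, where *Nxpe4* overlapped both of its neighbours. *Hykk* (2.10 ± 0.245), *Pxylp1* (1.79 ± 0.178), *Nxpe2* (1.39 ± 0.3), *Dclk3* (0.843 ± 0.108) and *Rnf26* (0.494 ± 0.029) followed. *Nxpe4* thus came after *Pts* in WT_PBS and after *Hykk* in CKO_PBS. In WT_PBS, *Pxylp1* also overlapped *Hykk* and *Nxpe2* within 1 SD.

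The response to CRE averaged over the genotypes has contrast weights orthogonal to those of both genotype contrasts, and it was tested. Where groups differ in their spread, the estimates are not fully independent of the choice of the genes. For *Dclk3* the near-zero WT_CRE libraries enter both, so its average of -2.39 ± 0.37 (log2, SE) is given with no test. Of the other 8 genes, 5 changed at an adjusted p below 0.05 (edgeR's quasi-likelihood test, Benjamini-Hochberg adjustment over 17473 genes), 2 higher and 3 lower, against 63.7% of all tested genes called. The median was 0.02 (log2) over the 9 genes, against 0.01 over all tested genes. *Nnmt* rose by 0.85 ± 0.15 (adjusted p = 0.000473) and *Rnf26* by 0.96 ± 0.22 (adjusted p = 0.00256). *Hykk* fell by 0.96 on the log2 scale (SE 0.13, adjusted p = 5.33e-05), *Nxpe4* by 0.71 (SE 0.21, adjusted p = 0.0118) and *Pxylp1* by 0.58 (SE 0.12, adjusted p = 0.00122). The call of *Nxpe4* was lost with limma-voom (adjusted p = 0.0858). *Cbl* (0.04 ± 0.06, adjusted p = 0.565), *Pts* (0.02 ± 0.06, adjusted p = 0.74) and *Nxpe2* (0.15 ± 0.30, adjusted p = 0.687) did not pass.

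Within each genotype the CRE differences are given without a test, because their libraries also chose the genes. For *Nxpe4*, *Pxylp1* and *Rnf26*, the response was of like size in CKO and WT, at -0.69 ± 0.34 and -0.73 ± 0.26, at -0.55 ± 0.18 and -0.62 ± 0.17, and at 0.89 ± 0.34 and 1.04 ± 0.29 (log2, SE). *Nnmt* responded by 1.08 ± 0.23 in CKO and 0.62 ± 0.21 in WT, and *Hykk* by -0.56 ± 0.19 in CKO and -1.36 ± 0.18 in WT. For *Nxpe2* the signs were opposite, 1.62 ± 0.52 in CKO and -1.32 ± 0.36 in WT. Every CKO_CRE library was above every CKO_PBS library for that gene, and every WT_CRE library below every WT_PBS library. Its average near 0 thus joins unlike responses. The share of all tested genes separated by CRE in this way was not counted, so nothing is read from the separation. By the averaged test, 63.7% of all tested genes were called. *Dclk3* responded by -0.13 ± 0.41 in CKO and -4.64 ± 0.60 in WT, where the 5 counts of WT_CRE stood against 143 counts in WT_PBS (ratio 0.0374, exact 95% counting interval 0.012 to 0.0894). The negative average of *Dclk3* therefore came from WT lungs. The difference between the genotypes' responses, CKO minus WT, was 2.94 ± 0.63 for *Nxpe2*, 4.51 ± 0.75 for *Dclk3* and 0.80 ± 0.25 for *Hykk*, and from -0.16 to 0.46 for the other 6.

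**Figure D3:**
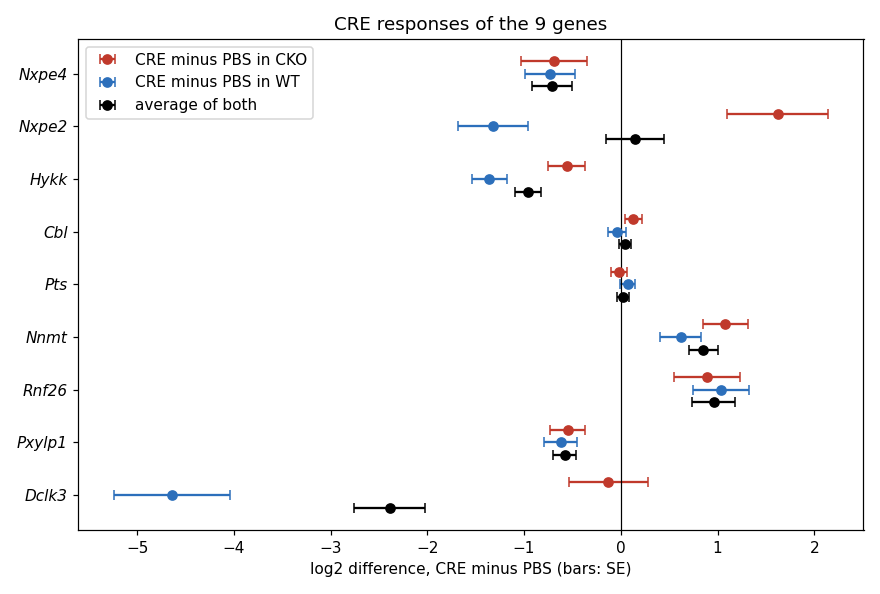
Fitted log2 differences, CRE minus PBS, with SE bars, for the 9 genes in CKO (red), in WT (blue) and averaged over the genotypes (black), on a log2 axis. *Nxpe2* lies right of 0 in CKO and left of 0 in WT, and *Dclk3* lies at -0.13 in CKO and -4.64 in WT.

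Other genes of chromosome 9 differed between the genotypes as well. Under PBS, 5 of the 969 genes outside the list were called (0.516%), 1 higher and 4 lower in CKO, against 0.109% of all tested genes (0.0401% higher and 0.0687% lower) and 8 of 16495 genes (0.0485%) off chromosome 9. Under CRE, 24 of 969 (2.48%) were called, 12 higher and 12 lower, against 0.916% of all tested genes (0.549% higher and 0.366% lower) and 128 of 16495 (0.776%) off the chromosome. No test was made of these shares. The counts under CRE depended on single libraries, and without CKO_CRE replicate 2 they were 329 of the chromosome 9 genes and 5112 genes in all. With limma-voom the counts under CRE were 481 of the 969 genes and 7645 of all 17473 tested genes. Those shares were nearer to each other in ratio than the shares by edgeR. The count over all genes was 38 to 93 without any one of the WT_PBS or WT_CRE libraries, CKO_PBS replicate 3 or CKO_CRE replicate 3. The median difference of the 969 genes was 0.00 under PBS and 0.02 under CRE (log2), so its genes did not shift one way on balance.

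The calls outside the list were also counted in windows of 10 Mb, with no test between windows. In the 4 windows of 10 Mb from 0 to 40 Mb, which held 28, 32, 89 and 51 tested genes, 0 were called in either contrast by edgeR, with 12 and 30 at an unadjusted p below 0.05 under PBS and CRE. There DESeq2 called 2 and 6, and limma-voom 1 and 90, of its 36 and 481 over the chromosome. The window from 90 to 100 Mb, where *Pxylp1* lies, also had 0 of 56 called by edgeR in either contrast, with 10 and 18 at an unadjusted p below 0.05. There DESeq2 called 1 and 5, and limma-voom 1 and 29. Of all 17473 tested genes, edgeR called 0.109% under PBS and 0.916% under CRE. DESeq2 called 114 and 838 of them, and limma-voom 146 and 7645. The share of all genes at an unadjusted p below 0.05 was not counted. With shares this low by edgeR, nothing is read from a window with 0 calls. Going up the chromosome, the first outside the list were 2 of 104 genes, called under CRE by edgeR, in the window from 40 to 50 Mb, where *Rnf26*, *Cbl*, *Nxpe4*, *Nxpe2* and *Nnmt* lie. Within 5 Mb of the *Rhoa* start, 3 of 153 genes (1.96%) were called under PBS and 8 (5.23%) under CRE. Within 1 Mb of the start of 1 of the 9 genes, 2 of 147 others (1.36%) were called under PBS, 1 higher and 1 lower in CKO. Under CRE 9 of them (6.12%) were called, 8 higher and 1 lower, where 8 of the 9 listed genes were lower in CKO. Farther away, 3 of 822 (0.365%) were called under PBS, all lower, and 15 of 822 (1.82%) under CRE, 4 higher and 11 lower.

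The closest tested neighbours of the 9 genes were mostly not called. Taking 2 on each side of each gene gave 30 distinct neighbours, of which 1 was called under PBS and 3 under CRE. Of all tested genes, 0.109% were called under PBS and 0.916% under CRE, and these shares were not compared by a test. Beside *Pts*, the cytokine gene *Il18* was higher in CKO under CRE (log2 2.36 ± 0.23, adjusted p = 0.000549 by edgeR) and so was *Plet1* (1.19 ± 0.14, adjusted p = 0.00231), both named after their values were seen. Under PBS *Il18* differed by 1.03 ± 0.21 and was not called (adjusted p = 0.126 by edgeR). Beside *Cbl*, *Ccdc153* differed by -0.95 ± 0.17 under PBS (adjusted p = 0.0864 by edgeR) and *Pdzd3* by 2.14 ± 0.56 (adjusted p = 0.339). Under CRE they differed by -0.25 ± 0.17 and 0.20 ± 0.50, and neither was called in either contrast. Next to the *Nxpe* pair, *Rexo2* (-0.08 ± 0.10 under PBS), *Cadm1* (-0.09 ± 0.15) and the pseudogene *Nxpe1-ps* (0.16 ± 0.56) had differences within their SE under PBS, and under CRE that of *Cadm1* was 0.52 ± 0.15 (adjusted p = 0.127 by edgeR). *Psma4* and *Ireb2*, the nearest neighbours of *Hykk* on either side, differed by -0.11 ± 0.17 and -0.13 ± 0.08 under PBS.

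Genes outside the list that were called in both contrasts, in one direction and with no overlap between libraries, numbered 4 on chromosome 9, and 1 of them has a predicted symbol. Calls in both contrasts and in one direction made up 0.0458% of all tested genes for lower and 0.0343% for higher. Of these, *Gclc* and *Rpl29* were lower in CKO. The glutathione synthesis gene *Gclc* averaged 102 ± 1.22 CPM in CKO_PBS and 240 ± 11.2 CPM in WT_PBS (SD, n = 3), and 175 ± 30.8 CPM in CKO_CRE and 615 ± 44.8 CPM in WT_CRE. The ribosomal protein gene *Rpl29* averaged 36.8 ± 3.55 CPM in CKO_PBS and 219 ± 18.9 CPM in WT_PBS. In CKO_CRE it averaged 45.7 ± 10.2 CPM, against 358 ± 13.2 CPM in WT_CRE, and ribosomal protein genes have many pseudogene copies, so its counts are uncertain.

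**Figure D4:**
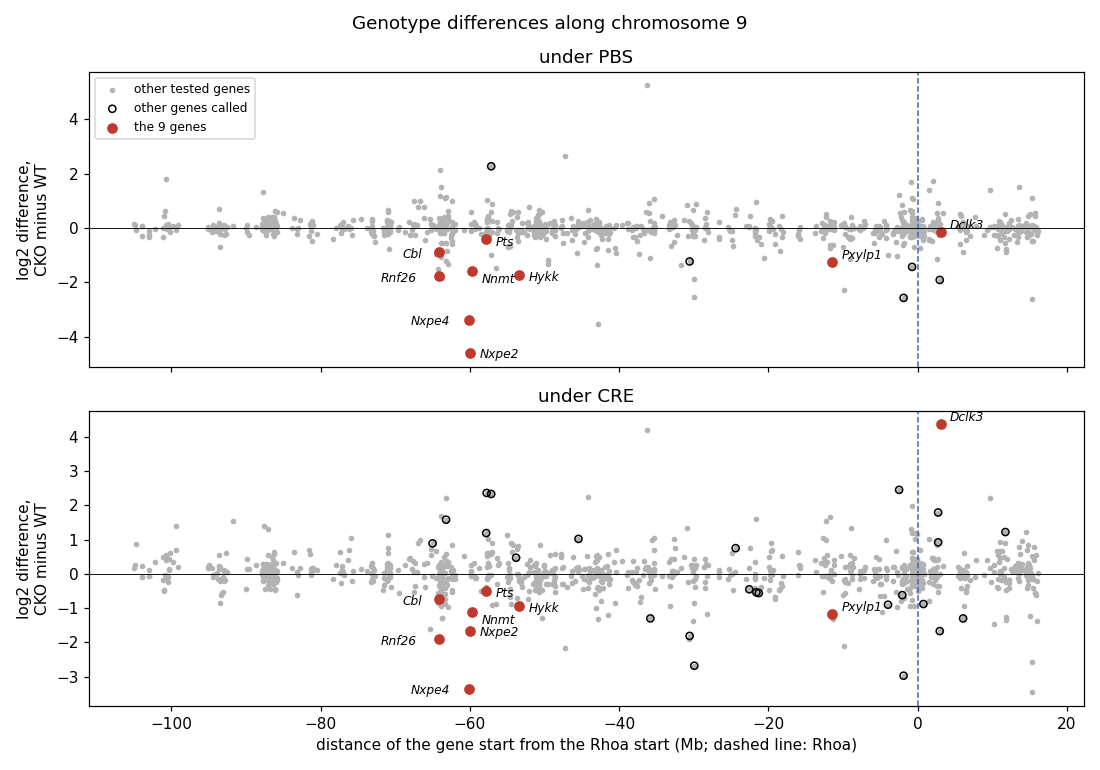
Log2 differences, CKO minus WT, of all 978 tested genes of chromosome 9 under PBS (top) and under CRE (bottom), against the distance of each gene's start from the *Rhoa* start in Mb (dashed line). Red points are the 9 genes, open circles mark other genes with an adjusted p below 0.05, and the left end, chromosome positions from 0 to 40 Mb, has no gene circled by edgeR's test.

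*Rhoa* itself was not among the genes that separated. Its difference, CKO minus WT, was -0.10 ± 0.10 under PBS (log2, SE, adjusted p = 1 by edgeR) and -0.07 ± 0.10 under CRE (adjusted p = 0.728). Its levels ran from 398 to 481 CPM in CKO_PBS and from 471 to 488 CPM in WT_PBS, and from 465 to 544 CPM in CKO_CRE and from 521 to 531 CPM in WT_CRE. In whole lung these levels do not check the labels.

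The pathway partners of the 9 genes, listed by role, were mostly not called for genotype by edgeR. Of 70 tested partners in 8 lists, 0 were called under PBS (0.109% of all tested genes) and 1 under CRE (0.916% of all), with medians of 0.02 and -0.02 (log2). Under PBS 5 were at an unadjusted p below 0.05, and DESeq2 and limma-voom called 0. Under CRE DESeq2 called 3 and limma-voom 27. Both tools also called many more of all tested genes under CRE than edgeR did, as given for the windows above. The counts of partners were not compared with those by a test, and nothing is read from them. The one called by edgeR was *Nos2*, the inducible nitric oxide synthase, which uses the cofactor that *Pts* helps to make, and it averaged 22.9 ± 20.7 CPM in CKO_CRE and 147 ± 23.4 CPM in WT_CRE (SD, n = 3; log2 -2.69 ± 0.50, adjusted p = 0.0317 by edgeR). Of the *Nxpe* family, *Nxpe3* on chromosome 16 and *Nxpe5* on chromosome 5 were not called (0.42 ± 0.17 and -0.19 ± 0.49 under PBS, -0.20 ± 0.17 and -0.99 ± 0.34 under CRE). The ligase genes closest to *Cbl* in the family, *Cblb* and *Cblc*, differed by 0.08 ± 0.10 and -0.02 ± 0.16 under PBS. Averaged over genotypes, CRE raised 30 of the 70 partners and lowered 21, against 32.2% and 31.5% of all tested genes. Of the *Cbl* list 8 of 13 rose and 4 fell, of the tetrahydrobiopterin list 5 of 10 rose and 3 fell, and of the nicotinamide and NAD list 5 of 16 rose and 6 fell. The glycosaminoglycan linker list had 4 of 11 higher and 4 lower, the lysine list 3 of 8 higher and 3 lower, and the STING list 3 of 8 higher and 1 lower. *Nxpe5* rose by 4.11 ± 0.30 (adjusted p = 1.06e-06), *Tmem173*, which encodes STING, by 1.95 ± 0.13 (adjusted p = 6.5e-07) and *Aass*, an enzyme of lysine breakdown, by 1.51 ± 0.14 (adjusted p = 5.37e-06).

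Cell type markers moved with genotype in part. The summed level of 8 club cell markers ran from 3240 to 4020 CPM in CKO_PBS and from 4860 to 4940 CPM in WT_PBS, with 0 of 8 called by edgeR (2 at an unadjusted p below 0.05), 1 by DESeq2 and 3 by limma-voom. Under CRE it ran from 1040 to 1830 CPM in CKO_CRE and from 1030 to 1190 CPM in WT_CRE, which overlap, with 0 of 8 called by edgeR (3 at an unadjusted p below 0.05), 2 by DESeq2 and 5 by limma-voom. That of 8 fibroblast markers ran from 6460 to 7220 CPM in CKO_CRE and from 8920 to 9730 CPM in WT_CRE, with 2 of 8 called lower, and that of 7 alveolar type 1 markers from 2380 to 3440 CPM in CKO_CRE and from 1900 to 2190 CPM in WT_CRE, with 1 of 7 called higher. The summed levels of 6 T cell and 5 B cell markers were also lower in CKO_CRE (54.1 to 130 and 72.0 to 226 CPM) than in WT_CRE (137 to 165 and 244 to 376 CPM), with 0 of 11 called by edgeR (6 at an unadjusted p below 0.05), 3 by DESeq2 and 8 by limma-voom. Under PBS, the summed level of 7 neutrophil markers ran from 106 to 383 CPM in CKO_PBS and from 70.0 to 103 CPM in WT_PBS. That of 8 ciliated cell markers ran from 381 to 554 CPM in CKO_PBS and from 554 to 579 CPM in WT_PBS. No list but those of fibroblast and alveolar type 1 markers had a marker called in either genotype contrast by edgeR, and no marker found in the table was at 0 in all libraries. The marker counts by DESeq2 and limma-voom under CRE stand against the many more genes these tools called there among all tested genes, given above. No test compared them, and nothing is read from these marker counts. The part of these markers in the differences of the 9 genes was not tested.

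Over the 12 libraries, the genes with the profile most like that of each of the 9 were mostly on chromosome 9. For each gene the 3 tested genes with the highest Pearson correlation of log2(CPM + 0.5) were taken, as a description over libraries that share group and depth. The 27 places went to 24 distinct genes, since some were named for more than 1 of the 9. Of the 27 places, 18 were on chromosome 9, and 7 were taken by genes of the 9 (*Cbl*, *Nxpe4*, *Pxylp1*, *Pts* and *Hykk*). Chromosome 9 held 978 of the 17473 tested genes. The 9 genes were chosen on this chromosome by genotype differences in the same libraries. Their likeness to each other and to other genes that differ by genotype is thus partly set by the choice, and nothing is read from these places. *Nxpe4* was most like *Cbl* (r = 0.941), *Sc5d* (r = 0.924) and *Pxylp1* (r = 0.923), all on chromosome 9. *Pts* was most like *Rpl29* (r = 0.972), *Morf4l1* (r = 0.968) and *Ooep* (r = 0.951), also all on chromosome 9. The 3 most like *Dclk3* were *Bicra* (r = 0.962), *Gm47720* (r = 0.951) and *Phc1* (r = 0.947), on chromosomes 7, 12 and 6.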

How the data were processed

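Whole-lung poly(A) RNA was measured in 12 libraries. Values were read counts per Ensembl gene, deposited as 1 table by the authors. The submitters' processing notes name fastp, STAR and mm10. No source used here names the counter, its strand setting or its annotation, so genes overlapping on opposite strands cannot be told apart. GENCODE M21 gave symbols and positions and matched 54495 of the 54532 identifiers. edgeR 4.0.16 under R 4.3.3 was run on the counts, filtered with filterByExpr and scaled with TMM, as a quasi-likelihood model with a mean for each group across the 12 libraries. P-values were adjusted by Benjamini-Hochberg over 17473 genes and called below 0.05. The SE of a log2 difference is its size over the square root of F. Median log2 differences over all tested genes were 0.00 for CKO against WT under PBS, 0.01 under CRE and 0.01 for CRE against PBS. The fit was tested on simulated data.

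The members and gene lists were chosen with earlier results of these data known. Named genes were the 9 members and *Rhoa*, the 3 most correlated genes of each member (log2 CPM + 0.5), other chromosome 9 genes called in both genotype contrasts without overlap, and called pathway partners. The text gives some of the last and of the correlated genes, leaves out 1 chromosome 9 gene that is not reported here, and adds near neighbours and family members that were not called. Transcripts were aligned with blastn 2.17.0. Replicates differed beyond counting noise (chi-square per degree of freedom 4.72 to 89.6). Alternatives were DESeq2 1.42.0 size factors and Wald test, limma 3.58.1 voom with quality weights, no low-count filter, a replicate block, sex as a covariate, only the groups compared, and each library left out.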

Additional observations from a re-analysis of the deposited data

Results flagged for a closer look

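The CRE response of *Nxpe2* had opposite signs in the genotypes, 1.62 ± 0.52 in CKO and -1.32 ± 0.36 in WT (log2, SE), with every library of each genotype on its own side. The difference of 2.94 ± 0.63 was not tested, and the share of all tested genes separated in this way was not counted. It rests on 36 counts in CKO_CRE and 14 counts in CKO_PBS.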

How the results depend on the processing

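Of 342 values of the 9 genes in the 2 genotype contrasts under the alternatives, 340 kept their sign. The exceptions were *Dclk3* under PBS with sex as a covariate (0.08) and without CKO_PBS replicate 2 (0.15). The average CRE response of *Nxpe2* ran from -0.10 to 0.44 with 1 library left out, and was negative without CKO_PBS replicate 2 (-0.05) and without CKO_CRE replicate 3 (-0.10), where it was not called. *Nxpe4* lost its CRE call with limma-voom (-0.56, adjusted p = 0.0858), and 5 of the 9 genes were then below the threshold. In each of the other alternatives 6 were. Both counts include *Dclk3*, whose average is given with no test, so no call is read for it. For CRE against PBS averaged over genotypes, 11130 genes were called, and 10459 to 11460 with 1 library left out. With sex as a covariate 9350 were called, the lowest of the alternatives, and with limma-voom 12215, the highest. Sex was partly confounded with treatment and, under PBS, with genotype. The average of *Dclk3* was -1.91 with sex as a covariate.

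For CKO against WT under PBS, 19 genes were called, and 114 with the DESeq2 Wald test, 146 with limma-voom, 89 with no filter, 74 with only the 2 groups compared and 12 to 53 with 1 library left out. Chromosome 9 genes outside the list numbered 5, and 30, 36, 16, 16 and 4 to 16 under these settings. For CKO against WT under CRE, 160 genes were called, and 838, 7645, 691, 29 and 38 to 5112 under these settings. On chromosome 9 there were 24 outside the list, and 86, 481, 65, 7 and 8 to 329. With 1 library left out, the highest of these counts were without CKO_CRE replicate 2, and the lowest under CRE without WT_CRE replicate 1. Under PBS the count was 33 without CKO_PBS replicate 2 and 12 without CKO_PBS replicate 3 or WT_PBS replicate 2 or 3. The causes were not tested.

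Between libraries of the same replicate number, correlations of deviations from the group mean ran from -0.024 to 0.236, with 5 of 18 pairs above 0.1. Libraries of unlike numbers were not compared, so whether replicate numbers pair the libraries was not tested. With a replicate block, 17 genes were called for CKO against WT under PBS, 151 for CKO against WT under CRE and 11063 for CRE against PBS averaged over genotypes. Low counts of *Nxpe2*, *Rnf26* and *Dclk3* limit the precision of their values.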
